A study of Mus musculus with 4 samples.

Results

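Mouse bone marrow was examined for 8 microRNA genes with known roles in blood lineages: Mir15a, Mir16-1, Mir142, Mir144, Mir150, Mir155, Mir223 and Mir21a. They were looked up by symbol in the array's gene table, and the list was drawn up with earlier results of these data known. The array reports a value per transcript cluster, a set of probes for a locus, and 4 of the 8 genes (Mir15a, Mir142, Mir150 and Mir155) had a cluster under no other gene's symbol, called their own cluster here. The cluster of Mir155 carries a second gene identifier, that of its host transcript. The other 4 were listed only together with a host or neighbouring gene: Mir16-1 with the long noncoding RNA gene Dleu2, Mir144 with Mir451a, Mir223 with F630028O10Rik and Mir21a with Vmp1. Such a shared cluster is described as a reading of the locus and is not assigned to the microRNA. In all, 925 microRNA genes and 30712 named genes of any kind had a cluster of their own.

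The study measured total RNA of tibial marrow on 4 arrays, 1 per group, after 2 weeks of treatment. The groups were control, cisplatin (a chemotherapy drug whose DNA crosslinks stop dividing marrow cells), Astragalus membranaceus (a medicinal root, hereafter astragalus) and electro-acupuncture. By the study's design text 6 samples of marrow were pooled, which would make each array a pool, but that number is not tied to each group. Sources used here give no strain, age, sex or dose, and do not state whether the astragalus and electro-acupuncture mice also received cisplatin, so both were set against the control and the cisplatin array.

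Values are on the log2 scale as deposited, so a difference of 1 is a 2-fold difference. Where 4 levels follow each other without labels, they are in the order control, cisplatin, astragalus, electro-acupuncture, and 3 differences from control are in the same order. With 1 array per group there is no replicate error, no test was run, and a difference is called by size alone, at 2-fold or more. The number of arrays limits the precision. A floor was set at 5.235, the median of the cluster means, and 17212 genes, 534 of them microRNA genes, were at or above it. Markers of the tissue were present on each array: all 8 measured erythroid genes and all 12 neutrophil genes were above the floor. Median log2 level over all clusters ran from 5.15 on the astragalus array to 5.31 on the electro-acupuncture array.

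A microRNA is transcribed as a long primary transcript, from which Drosha and Dgcr8 cut a hairpin and Dicer1 then a short duplex. A strand of it enters an Argonaute protein and pairs through its seed, bases 2 to 8, with messenger RNAs, which are then repressed or degraded. In marrow, miR-144 and miR-451a belong to red cell maturation, miR-223 to granulocytes, miR-150 and miR-155 to lymphocytes and activated immune cells, miR-142 to all blood cells, and miR-15a and miR-16 to the control of cell division and survival. The arrays were hybridised with cRNA made from 6 ug of total RNA. They read RNA of the locus and do not separate the primary transcript, the hairpin and the mature strand.

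The mature strands show which of these genes act through a common seed. RefSeq's table for GRCm38.p6 held a mature entry for each of the 8 genes, and the seed is in capitals in each line, written 5′ to 3′. For Mir150 the only entry was miR-150-3p, so miR-150-5p is missing from the lines and its seed was not compared. The first 3 lines share a seed, and miR-15a-5p equals miR-16-5p at 16 of 22 positions and miR-15b-5p at 18.
miR-15a-5p: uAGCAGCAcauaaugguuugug
miR-16-5p: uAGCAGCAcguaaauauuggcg
miR-15b-5p: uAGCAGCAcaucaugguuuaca
miR-142a-5p: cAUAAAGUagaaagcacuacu
miR-142a-3p: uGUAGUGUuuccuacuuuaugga
miR-142b: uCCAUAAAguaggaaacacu
miR-144-3p: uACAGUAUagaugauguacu
miR-451a: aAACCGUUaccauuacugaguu
miR-223-3p: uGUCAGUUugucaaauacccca
miR-155-5p: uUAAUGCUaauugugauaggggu
miR-150-3p: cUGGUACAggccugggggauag
miR-21a-5p: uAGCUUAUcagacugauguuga
Apart from miR-15a and miR-16, no 2 of the 8 genes shared a seed in these lines.

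Among the 8 genes the widest spreads over the arrays were those of Mir15a, highest in the control array, and Mir142, lowest in the astragalus array. Counting itself, 2 of the 534 microRNA genes above the floor had a range as wide as Mir15a and 60 one as wide as Mir142. In the plot of log2 levels by array, the clusters of Mir21a, Mir155 and Dleu2/Mir16-1 stay within a range of 0.74 while Mir15a spans 2.43. Mir150 lies under the floor throughout.

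**Figure D1:**
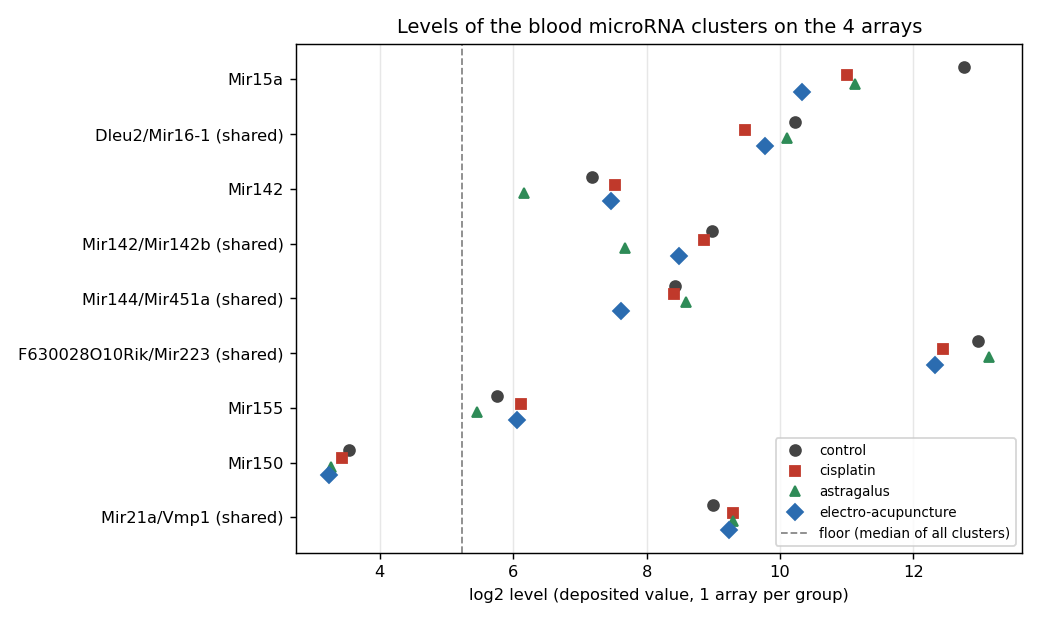
Log2 level (horizontal axis) of each of the 9 clusters that list a member, 1 dot per array, with the floor of 5.235 as a dashed line. Levels of different clusters are not comparable; the Mir15a dots span 2.43 between arrays and those of Mir150 span 0.30.

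Mir15a, whose microRNA represses Bcl2 and several cyclins, was lower in all 3 treated arrays than in the control. It stood at 12.76 on the control array, 11.00 with cisplatin, 11.12 with astragalus and 10.33 with electro-acupuncture. The control array thus stood 1.64 above the next one, and the electro-acupuncture array lay 0.67 below the cisplatin array. Against control it was 3.39-fold lower with cisplatin, 3.12-fold lower with astragalus and 5.39-fold lower with electro-acupuncture. Among the 534 microRNA genes above the floor its difference from control ranked 3 from the lowest with cisplatin, 5 with astragalus and 1 with electro-acupuncture. Mir1955 at -2.40 and Mir378c at -2.26 were lower in the cisplatin comparison. Between astragalus and cisplatin it differed by 0.12, and that sign turned under other scalings (-0.15 to 0.23). In such bulk samples fewer cells of a type and less RNA per cell cannot be told apart.

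The neighbouring member of this locus did not show the same size of difference. The mature miR-15a-5p maps to chr14:61632075-61632096 and miR-16-5p to chr14:61631936-61631957, both on the minus strand of GRCm38.p6 and both inside Dleu2, a long noncoding RNA. The shared Dleu2/Mir16-1 cluster stood at 10.22 on the control array, 9.48 with cisplatin, 10.11 with astragalus and 9.78 with electro-acupuncture. It was at most 1.67-fold lower than control, with cisplatin, and its astragalus difference of -0.11 turned to 0.01 with array medians subtracted. Mir15a's log2 difference from control minus that of the shared cluster was -1.02 with cisplatin, -1.53 with astragalus and -1.99 with electro-acupuncture. The platform table does not say which exons or strand either cluster reads.

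The other copy of the pair, Mir15b and Mir16-2 inside the gene of the condensin subunit Smc4, was under the floor. Mir15b read 4.66, 4.71, 4.89 and 4.41 in control, cisplatin, astragalus and electro-acupuncture, and Mir16-2 read 5.26, 4.99, 4.86 and 5.49. Smc4 itself read 14.50, 14.07, 14.78 and 14.30. No treated array differed from control by 2-fold for any of the 3. Of the remaining genes with this seed, Mir195a read 6.97, 6.32, 6.43 and 6.74. Mir195b read 6.09, 6.49, 5.65 and 7.34, so it was 1.25 higher on the log2 scale with electro-acupuncture than in control, opposite to Mir15a. Mir322 and Mir497, in shared clusters, and Mir6419 were above the floor too and within 2-fold of control on each treated array. Mir497 also had an own cluster, which read 4.98, 4.53, 4.39 and 4.62. By their means this cluster and those of Mir6342 and Mir6353 were under the floor.

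**Figure D2:**
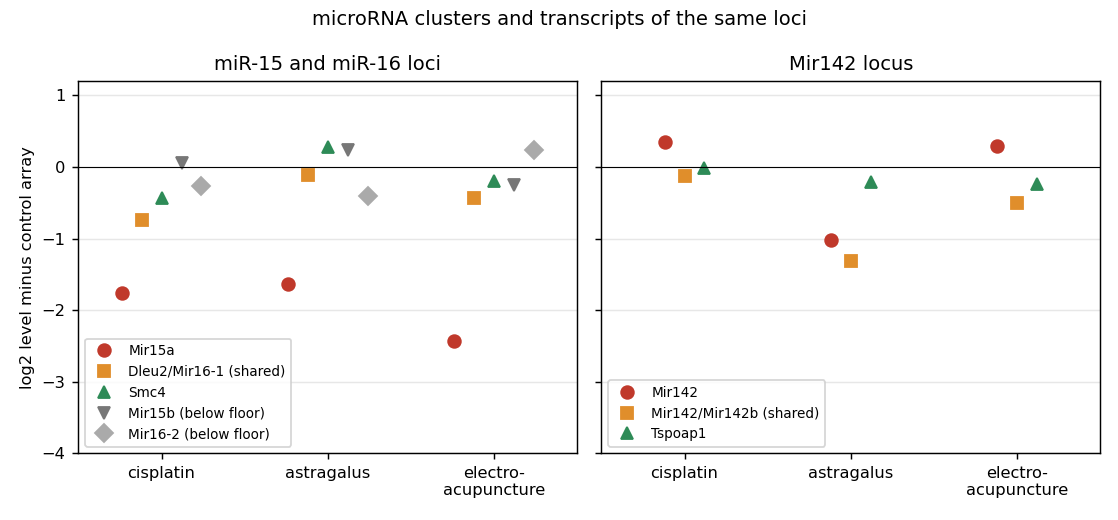
Log2 level minus that of the control array (vertical axis) for the 3 treated arrays, with the miR-15 and miR-16 loci on the left and the Mir142 locus on the right. Each point is 1 array; Mir15a lies at -1.76, -1.64 and -2.43 while Dleu2/Mir16-1 lies between -0.74 and -0.11, and both Mir142 clusters are below -1 with astragalus.

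B cell genes as a list were lower than control in the same arrays as Mir15a, but not each gene by much. Of 14 B cell markers 12 had a cluster of their own, the 11 with a mean above the floor had median differences from control of -1.10, -0.81 and -1.07 in cisplatin, astragalus and electro-acupuncture, and 7, 5 and 6 of them were at least 2-fold lower, beside 0.964%, 2.68% and 3.11% of all genes. The sum of the 12 log2 levels was 99.4 on the control array, 86.8 with cisplatin, 90.2 with astragalus and 89.2 with electro-acupuncture. On the cisplatin array 10 of the 12 were at or above the floor, and on each other array all 12. The lowest level, 4.87 with cisplatin, was under the floor. Il7r, the receptor of the B cell growth factor interleukin-7, read 10.81, 8.76, 9.47 and 9.05. Genes of the early B cell stages differed among themselves. Rag2, of antigen receptor gene assembly, read 5.66, 5.13, 5.53 and 5.93, and Vpreb1, of the pre-B cell receptor, 7.04, 6.70, 6.61 and 6.97. Ebf1, also early, read 10.40, 8.99, 9.39 and 9.19, at least 2-fold lower than control on each treated array. Vpreb3 read 7.79, 6.69, 7.20 and 7.26. By the summed levels of the list, the order of the treated arrays differed from that of Mir15a. Other markers were higher than control: each of 7 megakaryocyte and platelet genes in each treated array, from 0.31 for Itga2b with astragalus to 3.19 for Thbs1 with electro-acupuncture, and 7 osteoblast and stroma genes by a median of 2.28, 1.73 and 1.52. Small nuclear RNA genes were lower as well, with median differences from control of -0.09, -0.78 and -0.94 over 586 genes, against -0.14, -0.24 and 0.11 for microRNA genes. The part of these cell types and of the small RNA differences in the Mir15a differences was not tested.

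Mir142, transcribed in blood cells generally and needed for normal lymphocytes and platelets, was lowest in the astragalus array in both of its clusters. The cluster of Mir142 alone stood at 7.18 on the control array, 7.53 with cisplatin, 6.16 with astragalus and 7.47 with electro-acupuncture. The astragalus level was 1.02 below the next lowest array and the other 3 lay within 0.35. It was 2.03-fold lower than control, 2.58-fold lower than cisplatin and 2.48-fold lower than electro-acupuncture. With array medians subtracted the difference from control was -0.90 and no longer 2-fold.

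The locus carries a gene on each strand, and both hairpins are shown because a second cluster lists Mir142 with Mir142b. The Mir142 hairpin lies at chr11:87756864-87756927 on the plus strand of GRCm38.p6, and the whole of it, read as its reverse complement over 64 bases, is found inside the Mir142b hairpin at chr11:87756841-87756955 on the minus strand. Mature strands are in capitals.
Mir142: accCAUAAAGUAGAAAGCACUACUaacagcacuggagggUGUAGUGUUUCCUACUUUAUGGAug
Mir142b: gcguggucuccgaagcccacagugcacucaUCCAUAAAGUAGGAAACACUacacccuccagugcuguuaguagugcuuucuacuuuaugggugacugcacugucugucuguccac
The shared Mir142/Mir142b cluster read 8.98, 8.86, 7.67 and 8.48 in control, cisplatin, astragalus and electro-acupuncture. It was 2.48-fold lower with astragalus than in control and 2.28-fold lower than in cisplatin, but 1.75-fold lower than in electro-acupuncture. The 2 clusters differed in sign for electro-acupuncture against control, at 0.29 and -0.50. Tspoap1, the nearest protein-coding gene, read 5.49, 5.48, 5.28 and 5.25, close to the floor, and did not reach 2-fold in any pair.

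MicroRNA genes as a class were mostly lower in the astragalus array. The median microRNA gene was 0.34 lower than in electro-acupuncture, 0.24 lower than in control and 0.06 lower than in cisplatin, and 13.1% of the 534 were at least 2-fold lower than in electro-acupuncture. With array medians subtracted those medians were -0.18, -0.12 and 0.05, so the last turned sign. Mir142 ranked 35 from the lowest against electro-acupuncture, 26 against control and 6 against cisplatin. Many of the microRNA genes at least 2-fold lower than in electro-acupuncture belonged to the Mir297, Mir466, Mir467 and Mir669 family. Several of its copies read the same value, so the class figures and ranks count that family many times. The part of the class shift in the Mir142 differences was not tested.

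Mir144 and Mir451a are made from 1 transcript of red cell precursors driven by Gata1, and read as 1 shared cluster. That cluster stood at 8.42 on the control array, 8.41 with cisplatin, 8.59 with astragalus and 7.61 with electro-acupuncture. The electro-acupuncture array was the low one, 1.74-fold under cisplatin, 1.75-fold under control and 1.97-fold under astragalus, and the other 3 were within 0.18. The difference from astragalus, 0.98, was 1.14 with array medians subtracted and so passed 2-fold. Mir451b, on the opposite strand at Mir451a's position, had its own cluster at 5.86, 6.18, 6.87 and 6.11, and was 2.01-fold higher in astragalus than in control.

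Erythroid markers went both ways in the electro-acupuncture array. Over 8 of 10 genes, all above the floor, 4 were higher and 4 lower than control there, with a median difference of 0.00, and the median was -0.34 with cisplatin and 0.62 with astragalus, and the sums of log2 levels were 101.2, 98.7, 105.4 and 100.6 in control, cisplatin, astragalus and electro-acupuncture. Kel, a blood group protein, read 14.10, 13.16, 13.93 and 13.27, so its electro-acupuncture difference of -0.83 was about that of Mir144/Mir451a, and Epb42, of the red cell membrane skeleton, was at -0.57. Rhag, of the Rh complex, read 13.48, 13.72, 15.04 and 14.37 and went the other way. It was 2.95-fold higher with astragalus than control, and Ermap and Rhd were 2.35-fold and 2.25-fold higher with astragalus than cisplatin. The part of red cell precursors in the Mir144/Mir451a level was not tested. Gata1 read 7.09, 7.38, 7.68 and 7.45, and Klf1, a red cell activator, 9.82, 9.55, 10.35 and 10.04. Nfe2l2, a target of miR-144 in red cell antioxidant defence, read 8.23, 8.16, 9.02 and 8.94.

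**Figure D3:**
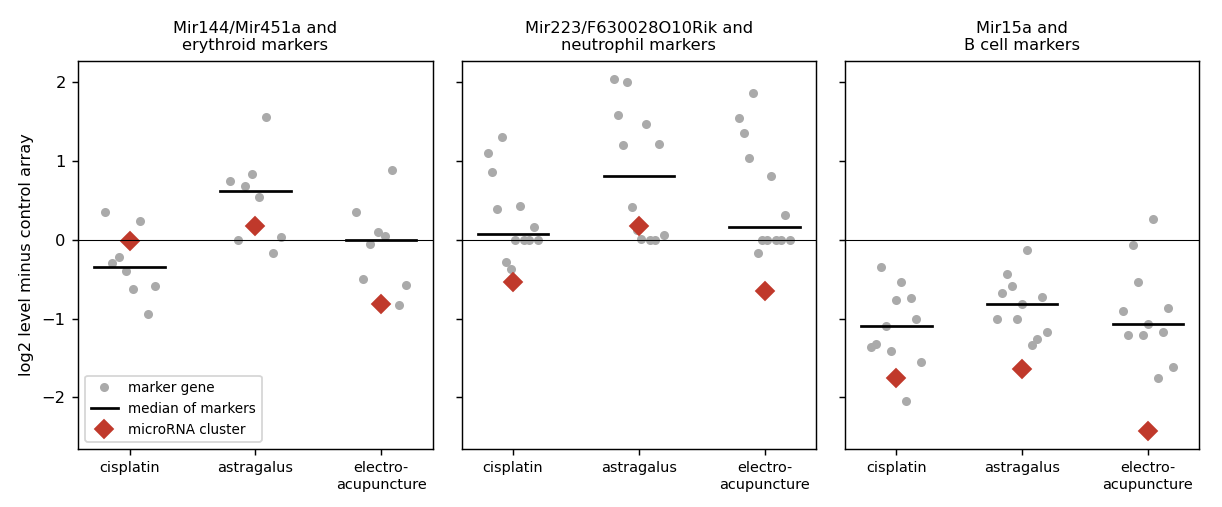
Log2 level minus that of the control array (vertical axis) for the 3 treated arrays in 3 panels: Mir144/Mir451a with erythroid markers, F630028O10Rik/Mir223 with neutrophil markers and Mir15a with B cell markers. Gray dots are marker genes above the floor, bars their medians and diamonds the microRNA cluster; with electro-acupuncture the erythroid median is 0.00, over genes on both sides of it, and Mir144/Mir451a is at -0.81. The neutrophil bars include 2 genes at the ceiling, drawn at 0.

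Mir223 is a granulocyte gene that restrains neutrophil numbers, and its cluster also lists F630028O10Rik, the noncoding transcript around it. It stood at 12.97 on the control array, 12.44 with cisplatin, 13.14 with astragalus and 12.32 with electro-acupuncture. Control and astragalus were the higher pair, and no pair of arrays differed 2-fold; astragalus over electro-acupuncture was 1.77-fold. The astragalus difference from control, 0.17, was -0.08 at its lowest under other scalings. S100a8 and S100a9, of 12 neutrophil markers, were at the ceiling of 19.93 on each array, where differences are not measurable. Over the other 10, a choice made after seeing the data, the median difference from control was 0.28, 1.21 and 0.57, and over all 12 it was 0.08, 0.82 and 0.16, with summed log2 levels of 166.1, 169.7, 176.3 and 172.8. With electro-acupuncture 6 of the 10 were higher than control, 3 equal and 1 lower. The highest were genes of the early, primary granules: Mpo read 11.70, 12.80, 13.75 and 13.25, and Ctsg 8.71, 10.02, 10.72 and 10.57. Genes of later granules differed among themselves. Camp read 18.29, 17.92, 18.42 and 18.29, and Ltf 16.39, 16.11, 16.81 and 16.22. Lcn2 read 10.12, 10.55, 11.59 and 10.93, and Mmp8 12.99, 13.15, 14.21 and 13.31. With astragalus Lcn2 was 2.77-fold and Mmp8 2.33-fold higher than control. The part of neutrophil stages in the Mir223 cluster was not tested.

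The 3 remaining genes varied less. Mir155, induced in activated lymphocytes and macrophages, stood at 5.76 on the control array, 6.11 with cisplatin, 5.46 with astragalus and 6.06 with electro-acupuncture. Its widest gap was 1.57-fold, cisplatin over astragalus. Mir150, a gene of mature lymphocytes that targets Myb, read 3.54, 3.43, 3.27 and 3.24, below the floor on each array, so no order is read from it. T cell markers had medians of 5.38 to 5.60, and NK cell markers 5.36 to 5.72, both near the floor. Single genes stood higher: Cd3d of the T cell list read 7.67, 7.31, 8.16 and 7.62. Nkg7 of the NK cell list read 7.20, 8.52, 8.97 and 8.53. It was 2.5-fold, 3.41-fold and 2.51-fold higher than control, 1 of 6 called in each pair, beside 2.97%, 8.80% and 7.26% of all genes. The Vmp1/Mir21a cluster read 9.0, 9.30, 9.30 and 9.23. Mir21a lies inside Vmp1, an autophagy gene, and no pair of arrays differed by more than 1.23-fold.

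Across the 6 pairs of arrays, few of the 4 own clusters passed 2-fold, and each that did was lower in the first-named array. In cisplatin against control it was Mir15a, 1 of 4, where 2.97% of all genes above the floor were called, 0.964% were lower, and 2.62% of microRNA genes were lower. In astragalus against cisplatin it was Mir142, 1 of 4, beside 3.92% of all genes, 1.92% lower, and 2.62% of microRNA genes lower. In electro-acupuncture against cisplatin it was 0 of 4, beside 3.91% of all genes, 2.59% lower, and 0.936% of microRNA genes lower. Members are too few for a share of 4 to be set against such a background. The 4 also include Mir150, which lies under the floor applied to the background.

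Against control, astragalus had 2 of 4 lower, Mir15a and Mir142, beside 8.80% of all genes, 2.68% lower, and 5.06% of microRNA genes lower. Electro-acupuncture had 1 of 4, Mir15a, beside 7.26% of all genes, 3.11% lower, and 2.62% of microRNA genes lower. In astragalus against electro-acupuncture Mir142 was called, 1 of 4, beside 1.52% of all genes, 0.871% lower, and 13.1% of microRNA genes lower. Many of these last belonged to the Mir297, Mir466, Mir467 and Mir669 family. The shared clusters of the 4 genes without one of their own were not called in any pair as deposited. These pairs share arrays and are not independent. The share of all called genes that were higher depended on scaling: in astragalus against cisplatin it was 51.0% as deposited, 71.8% with array medians subtracted and 29.1% with a level-dependent trend removed, and in astragalus against electro-acupuncture 42.7%, 71.4% and 24.4%. In astragalus against control it was 69.6% as deposited and 58.9% after quantile normalization. For microRNA genes in these 3 pairs the share was 44.0%, 9.09% and 20.6% as deposited, and 56.0%, 20.3% and 36.7% with array medians subtracted. Subtracting medians moved the median difference of all genes from 0.06 to 0.17 in the first of these and from 0.06 to 0.22 in the second.

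**Figure D4:**
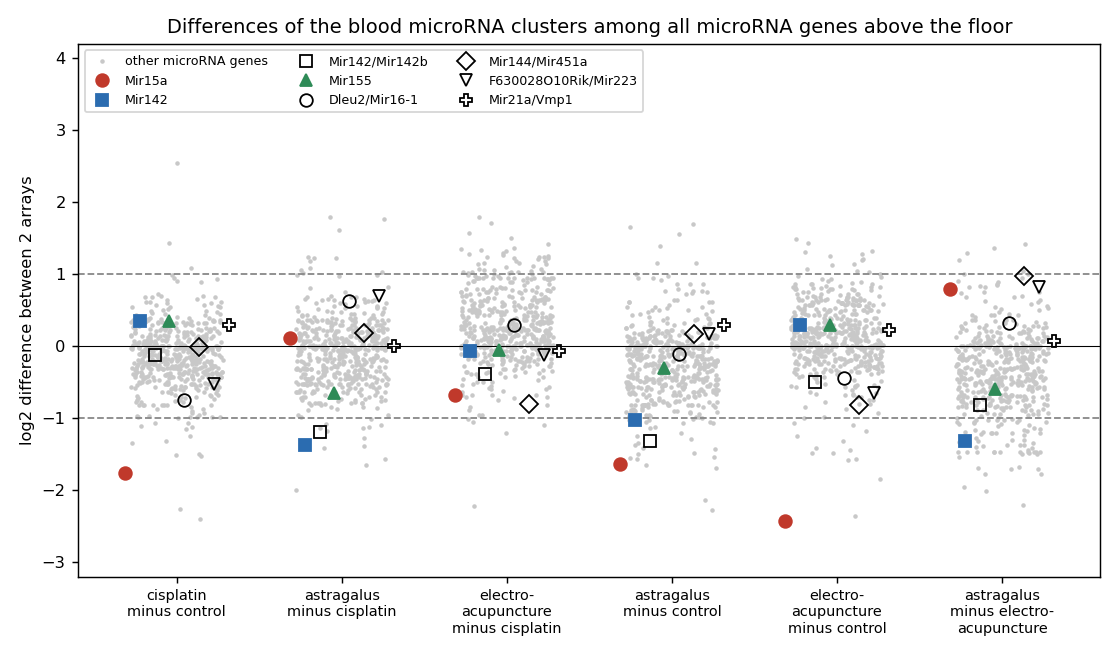
Log2 difference between 2 arrays (vertical axis) in the 6 pairs (horizontal axis). Gray dots are the other microRNA genes above the floor and coloured markers the member clusters; dashed lines mark 2-fold, passed by Mir15a in all 3 comparisons with control and by the own cluster of Mir142 in all 3 that involve astragalus.

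Other microRNAs of blood cells were mostly not measurable alone. Of 54 listed, 31 had an own cluster and 12 were above the floor. Mir23a, a microRNA of myeloid development, read 6.30, 5.75, 5.99 and 6.81 in control, cisplatin, astragalus and electro-acupuncture and was 2.08-fold higher with electro-acupuncture than cisplatin. Mir181d, of a family active in lymphocyte development, read 10.11, 9.88, 9.14 and 10.41 and was 2.41-fold lower with astragalus than electro-acupuncture. These were the only 2 called in any pair. In electro-acupuncture against cisplatin 3.91% of all genes and 8.61% of microRNA genes above the floor were called in either direction. In astragalus against electro-acupuncture those shares were 1.52% and 14.4%. The 12 genes are too few to set their calls apart from such a background. The shared cluster of the miR-17 to miR-92 transcript, which promotes B cell survival, read 6.59, 6.47, 6.46 and 6.25.

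Of 27 genes that make and use microRNAs, 22 had an own cluster, 21 were above the floor and none reached 2-fold in any pair. Since 1.52% to 8.80% of all genes were called per pair, 21 genes are too few to set a count of 0 apart from that. Tut4 and Tut7, which add uridines to microRNA precursors, were the 2 with the largest differences with cisplatin, 1.58-fold and 1.56-fold lower than control. Tut4 read 8.88, 8.22, 8.28 and 8.12, and Tut7 read 12.91, 12.27, 12.79 and 12.17. The slicing Argonaute Ago2 was highest with astragalus, at 10.35, 10.15, 10.90 and 10.25. Dicer1, the enzyme that cuts hairpins, read 8.83, 8.69, 9.03 and 8.66, and Drosha 8.66, 8.84, 8.93 and 8.82.

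Messenger RNAs reported as targets were examined for each gene. Of the 9 measured targets of miR-15a and miR-16, Myb alone was called against control, 1 of 9 in each pair beside 2.97%, 8.80% and 7.26% of all genes. It stood at 11.66 on the control array, 10.34 with cisplatin, 10.59 with astragalus and 10.24 with electro-acupuncture, 2.5-fold, 2.10-fold and 2.68-fold lower than control. Myb, an activator of immature blood cells and also a miR-150 target, was thus low in the arrays in which Mir15a was low. The list's median differences from control were 0.02, 0.35 and 0.05, against 0.01, 0.05 and 0.04 for all genes. The antiapoptotic gene Bcl2 read 7.03, 7.22, 7.13 and 7.12, and the cyclin gene Ccnd2 8.26, 9.07, 8.88 and 9.04.

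Among 6 measured targets of miR-142, Il6st, the gp130 receptor subunit, read 7.67, 8.30, 8.85 and 8.56 and was 2.27-fold higher with astragalus than control. It was 1 of 6 called there, beside 8.80% of all genes. The GTPase gene Rac1 read 9.92, 10.35, 10.86 and 10.78. Both were above control with electro-acupuncture too, Il6st by 0.89 and Rac1 by 0.86. Of 5 miR-150 targets the ubiquitin ligase gene Cbl read 13.14, 13.94, 14.28 and 13.74, 2.20-fold higher with astragalus than control. In that pair Cbl was the 1 of 5 called higher and Myb the 1 of 5 called lower, beside 8.80% of all genes called. Of 7 miR-155 targets 1 was called in electro-acupuncture against control, beside 7.26% of all genes. It was the transcription factor gene Maf, which read 7.37, 7.83, 8.18 and 8.51, 2.20-fold higher with electro-acupuncture than control. Most monocyte and macrophage markers were higher on that array too. Over 8 genes above the floor the median difference from control was 0.62, and 7 were higher, beside 53.8% of all genes. At least 2-fold higher were 3 of the 8, beside 4.15% of all genes, and Ly6c2 was lower, at -0.30. The macrophage receptor Mrc1 read 7.65, 8.27, 8.49 and 9.06. Summed log2 levels of that list were 67.7, 68.7, 69.9 and 73.5, and its part in the Maf level was not tested. No target of miR-223 (7 above the floor) or miR-21a (8) was called. Since 1.52% to 8.80% of all genes were called per pair, these targets are too few to set a count of 0 apart from that. The largest with miR-21a was the tropomyosin gene Tpm1, at 9.18, 9.90, 9.85 and 9.85.

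Of 17 genes that regulate these loci 14 were above the floor. Fos, an immediate early gene, read 6.43, 8.95, 5.58 and 6.23, and was 5.74-fold higher with cisplatin than control. It was 10.3-fold lower than cisplatin with astragalus and 6.59-fold lower with electro-acupuncture. Jun read 5.0, 6.17, 5.11 and 5.52, 2.25-fold higher with cisplatin than control and 2.08-fold lower with astragalus than cisplatin. Myb, also on this list, was the only 1 called lower than control, on each treated array. In cisplatin against control 2 of 14 were called higher and 1 lower, beside 2.97% of all genes called. Against cisplatin 2 were called lower with astragalus and 1 with electro-acupuncture, beside 3.92% and 3.91%. Spi1, which drives Mir223, read 7.10, 7.63, 7.84 and 7.33, and Cebpa, another activator of Mir223, 7.80, 8.48, 8.20 and 7.87. Neither Spi1 nor Cebpa reached 2-fold.

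Profiles most like Mir15a and Mir142 were sought among genes above the floor by the Euclidean distance between 4-array log2 profiles, each centred on its mean. For Mir15a the nearest were Ifi209 at 0.432, Mctp2 at 0.500 and the small nucleolar RNA gene Gm24727 at 0.506. Ifi209, of an interferon-inducible family, read 10.63, 8.38, 8.97 and 8.24. For Mir142 they were Mir1264 at 0.127, Gm23703 at 0.169 and the small nucleolar RNA gene AF357428 at 0.181.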

How the data were processed

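Total RNA of bone marrow was measured on 4 arrays, 1 per group. The authors deposited a log2 value for each transcript cluster on each array, made with Affymetrix Expression Console, per the submitters' processing notes. Sources used here do not give its version, summary method or genome build. That the unit is log2 follows from the values themselves, which end at 19.93.

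Of 65956 clusters, 32750 are in the platform's gene table, 31269 with 1 gene and 1481 with several. Symbols were updated with RefSeq tables of GRCm38.p6, which also gave neighbours, microRNA sequences and their positions. For a gene with several clusters of its own the one with the highest mean was used. Differences of log2 values between 2 arrays were called at 1 or more, with no test. Genes named are the 8 members, transcripts at their loci, the 3 nearest profiles of members with a range of at least 1, and, from each list and comparison, genes among the 4 largest past 2-fold or else the 2 largest; Bcl2, Ccnd2, Dicer1, Drosha, Gata1, Klf1, Cebpa, Epb42, Vpreb1, Camp, Ltf, Itga2b, S100a8, S100a9, Mir195a, Mir195b, Mir1955, Mir378c and the miR-17 transcript were added after their values were seen. Mir322, Mir497, Mir6342, Mir6353, Mir6419 and the Mir297, Mir466, Mir467 and Mir669 family were also named after their values were seen. Members and lists were chosen with earlier results of these data known. Steps were tested on simulated data. Alternatives were quantile normalization, subtraction of array medians, loess, other clusters, filters and a 1.5-fold threshold. Python 3.11.15, numpy 2.4.6, pandas 2.3.3 and statsmodels 0.14.6 were used.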

Additional observations from a re-analysis of the deposited data

How the results depend on the processing

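With 1 array per group, no replicate could be left out and the precision is limited by the number of arrays. No paired analysis was possible because each group has 1 array. Of 216 recomputed values of member differences, each under 1 alternative, 214 stayed on their side of 2-fold. The sign turned in 11 of them, all of differences of 0.18 or less in size, and in none past 2-fold. The 216 include values under the mean of a gene's clusters, which could not move because each member was read from a fixed cluster. In astragalus against control 1 of the 4 own clusters was called with array medians subtracted in place of 2, since Mir142 was then at -0.90. In astragalus against electro-acupuncture 0 were called with the shared Mir142/Mir142b cluster in place of Mir142's own, in place of 1. The Mir144/Mir451a difference between astragalus and electro-acupuncture, 0.98, was 1.14 with medians subtracted. At 1.5-fold in place of 2-fold, genes called in cisplatin, astragalus and electro-acupuncture against control numbered 1955, 3627 and 3104 (511, 1515 and 1249 at 2-fold), in astragalus and electro-acupuncture against cisplatin 2473 and 1944 (674 and 673), and in astragalus against electro-acupuncture 1696 (262). MicroRNA genes numbered 85, 150, 119, 102, 154 and 193 in the same order (17, 34, 28, 25, 46 and 77). With the floor at the 75th percentile, microRNA genes called were 22 and 18 in astragalus and electro-acupuncture against control and 44 in astragalus against electro-acupuncture, where all genes called were 170.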
